A study of Mus musculus with 6 samples.

Results

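The G1 cyclins and their kinases are 9 mouse genes: the D-type cyclins Ccnd1, Ccnd2 and Ccnd3, the E-type cyclins Ccne1 and Ccne2, the kinases Cdk2, Cdk4 and Cdk6, and the phosphatase Cdc25a. They were taken by name, as every probe set whose platform annotation names exactly 1 gene and that gene is one of the 9. This gave 20 of the 22690 probe sets of the array, for 9 of the 12393 genes so named. The samples were 3 cecal tumors and 3 duodenal tumors of Apc1638N mice, whose mutant Apc allele makes the gut prone to tumors, and all 6 tumors were deficient in Rb1, the retinoblastoma gene. Each tumor came from a different mouse and was hybridised to 1 Affymetrix array, read as a linear intensity per probe set. Duodenal samples could hold tumor tissue from the pylorus, the outlet of the stomach. The sources used here do not give how or in which cells Rb1 was removed, nor the age and sex of the mice. Neither normal gut nor Rb1-intact tumors enter the comparison.

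D-type cyclins are made in response to growth signals and bind Cdk4 or Cdk6, and the resulting kinase phosphorylates the retinoblastoma protein. That frees E2F factors, which switch on genes of DNA synthesis, among them the E-type cyclins. E-type cyclins activate Cdk2, Cdc25a removes phosphates that hold Cdk2 inactive, and the cell enters S phase. In the intestinal epithelium Ccnd1 and Ccnd2 are both linked to Wnt and beta-catenin signaling, which is raised where Apc is lost. The retinoblastoma protein is the best known target of the D-type kinases, so in these tumors the pathway was measured with that target deficient.

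The arrays had median intensities of 164.6 to 181.8. Probe sets that exceeded the 40th percentile (92.4 to 100.6, depending on the array) in 3 or more tumors were tested, which left 13866 probe sets for 8129 genes. Fold changes are cecal minus duodenal on the log2(intensity + 16) scale, with limma standard errors, and a call is a limma p, adjusted by Benjamini-Hochberg over all tested probe sets, under 0.05. Of all tested probe sets 1290, or 9.3%, were called, 726 (5.24%) higher and 564 (4.07%) lower in cecal tumors. Rb1 itself had 1 probe set, at 356.0, 337.8 and 387.5 in cecal tumors 1, 2 and 3, against 358.9, 328.1 and 306.7 in duodenal tumors 1, 2 and 3. The groups overlapped (log2 fold 0.12 ± 0.14 SE, limma adjusted p = 0.663). Whether its probes lie inside the removed stretch of the gene is unknown here, so it does not check the label. RNA came from whole tumors, where fewer cells of a type and less RNA per cell cannot be told apart.

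Of the 9 genes, Ccnd2 was the one with called probe sets, all lower in cecal tumors. The other tested members, Ccnd1, Ccnd3, Ccne1, Ccne2, Cdk2, Cdk4 and Cdc25a, had no called probe set in either direction, and Cdk6 was too dim to test. In all, 18 of the 20 member probe sets were tested, and 3 of them, each of Ccnd2, were called lower, against 4.07% of all tested probe sets. At an unadjusted limma p under 0.05 there were 5, again all of Ccnd2, where 23.3% of all probe sets passed. The median log2 fold of the 18 was -0.27 and 15 of them were negative, against a median of -0.04 and 55.9% negative for all 13866. Ccnd2 gives 6 of the 18, and probe sets of 1 gene are not separate observations. By the brightest tested probe set of each gene none of the 8 tested members was called by limma, where 10.4% of all genes were, and 1, Ccnd2, had an unadjusted p under 0.05, where 24.9% of all genes had. On that basis 5 of 8 members had a negative fold and the median was -0.06, against 56.5% negative and a median of -0.05 for all tested genes.

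**Figure D1:**
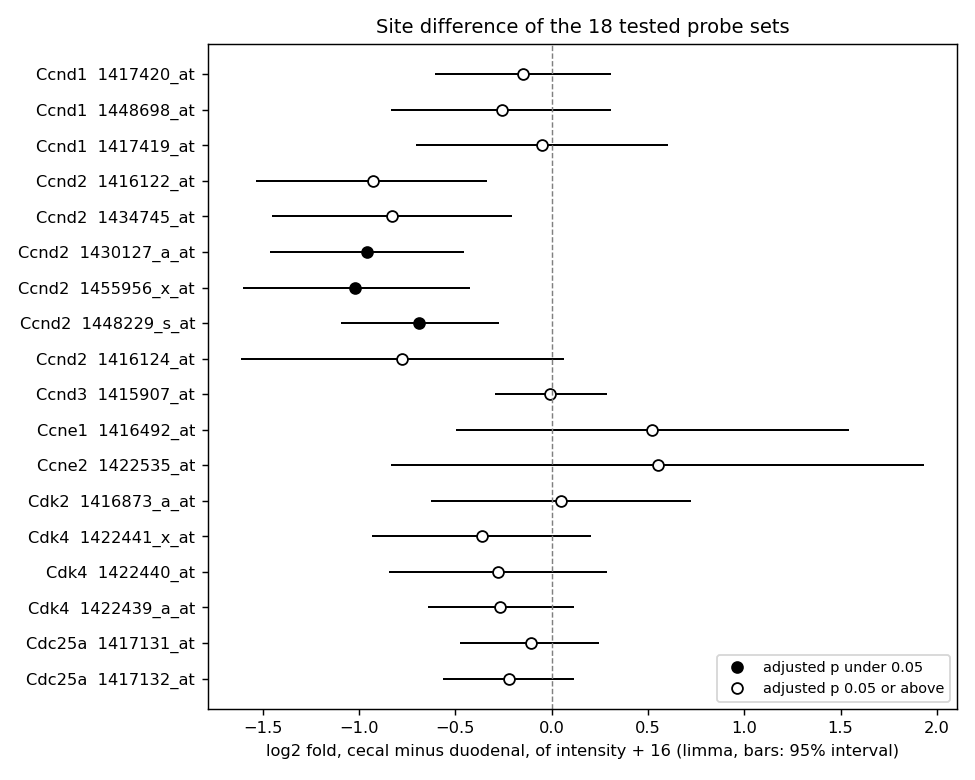
Log2 fold change (cecal minus duodenal, of intensity + 16) of each of the 18 tested member probe sets on the x axis, with the limma 95% interval as a bar and filled points for adjusted p under 0.05. The 6 Ccnd2 probe sets lie between -1.02 and -0.69, and 3 of them are filled. The intervals of Ccne1 and Ccne2 are the widest and include 0.

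Ccnd2 encodes cyclin D2, a partner of Cdk4 and Cdk6, and the array measures it with 7 probe sets. The brightest, 1416122_at, had 813.3, 1293.2 and 1603.9 in cecal tumors 1, 2 and 3, against 1902.3, 2928.4 and 2153.0 in duodenal tumors 1, 2 and 3. Every cecal tumor was below every duodenal tumor, and cecal tumor 1 was the lowest of the 6. The level in cecal tumors was 52.4% of that in duodenal tumors (log2 fold -0.93 ± 0.26 SE, 95% interval -1.53 to -0.34), which missed the threshold (limma adjusted p = 0.0626). It averaged 1237 ± 398.3 in cecal tumors and 2328 ± 534.9 in duodenal tumors (SD, n = 3 each). Once tumors of the same number were treated as pairs, a pairing taken from the data, it passed (limma adjusted p = 0.0162 with the block).

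The 3 called Ccnd2 probe sets were 1430127_a_at, 1455956_x_at and 1448229_s_at. The first of them had 570.8, 772.6 and 920.8 in cecal tumors 1, 2 and 3, against 1246.6, 1891.2 and 1311.7 in duodenal tumors (log2 fold -0.96 ± 0.22 SE, limma adjusted p = 0.0303). The second had 395.4, 589.7 and 745.8 in cecal tumors, against 922.2, 1500.3 and 1093.7 in duodenal tumors (log2 fold -1.02 ± 0.26 SE, limma adjusted p = 0.0442). The third had 295.4, 244.8 and 315.3 in cecal tumors, against 448.5, 573.3 and 393.0 in duodenal tumors (log2 fold -0.69 ± 0.18 SE, limma adjusted p = 0.0492). In each, the highest cecal tumor was below the lowest duodenal one. Probe sets with s or x in their names can also bind other transcripts, so 1448229_s_at and 1455956_x_at are less certain than 1430127_a_at.

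The remaining Ccnd2 probe sets were not called. The probe set 1434745_at had 551.8, 1026.1 and 1073.0 in cecal tumors, against 1275.8, 1953.9 and 1415.6 in duodenal tumors (log2 fold -0.83 ± 0.27 SE, limma adjusted p = 0.101). The dimmer 1416124_at overlapped between the sites, with 75.4 to 163.1 in cecal tumors and 132.8 to 355.0 in duodenal tumors (log2 fold -0.78 ± 0.37 SE, limma adjusted p = 0.25). The dimmest, 1416123_at, was above the 40th percentile on 1 array and was not tested, with 57.0 to 90.9 in cecal tumors and 60.8 to 109.1 in duodenal tumors. Thus 5 of the 7 probe sets did not overlap between the sites, all lower in cecal tumors, where 29.5% of all tested probe sets did not overlap, 15.7% with the cecal tumors lower. Averaged over its 6 tested probe sets, Ccnd2 had a log2 fold of -0.87 ± 0.24 (SE) and missed the threshold (limma adjusted p = 0.0609), in a fit that called 10.8% of genes.

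**Figure D2:**
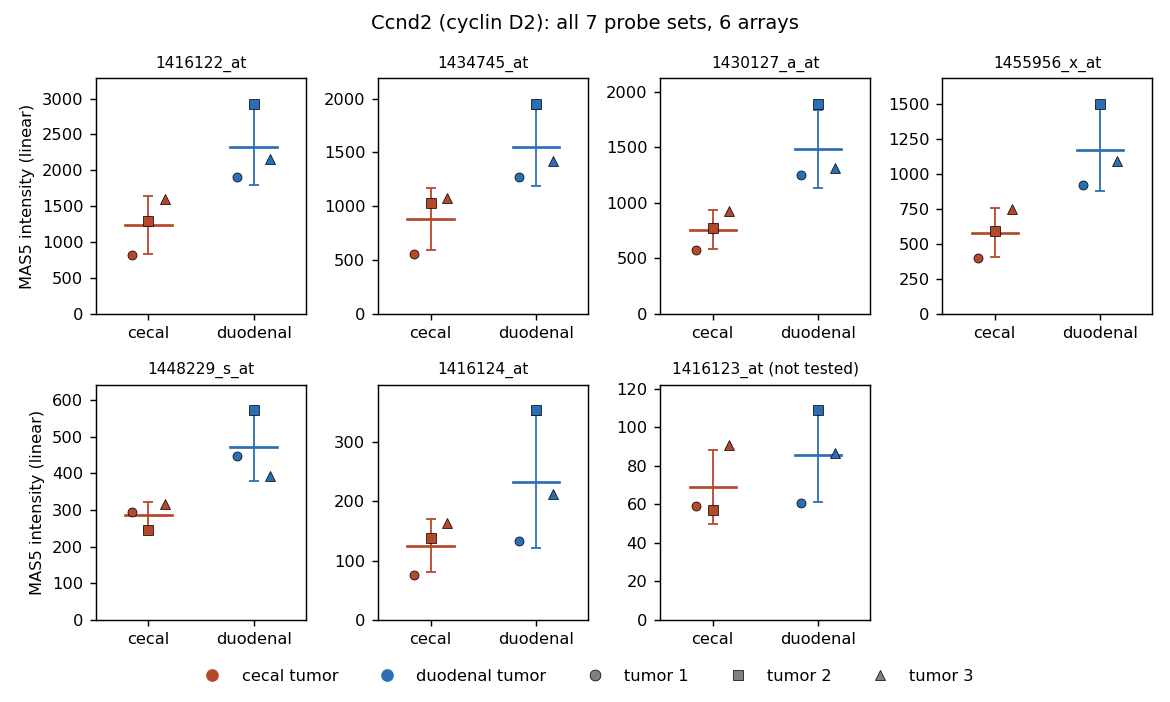
MAS5 intensity (linear, y axis from 0) of the 7 Ccnd2 probe sets on the 6 arrays, cecal tumors left and duodenal tumors right in each panel. Points are tumors, with the shape giving the tumor number, lines are means and bars are SDs (n = 3). In 5 panels every cecal tumor lies below every duodenal tumor.

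The Ccnd2 calls were sensitive to single arrays. Without cecal tumor 1, cecal tumor 2, duodenal tumor 2 or duodenal tumor 3 none of the member probe sets was called, and without duodenal tumor 1 only 1430127_a_at was, while without cecal tumor 3 there were 3, namely 1416122_at, 1430127_a_at and 1455956_x_at. In the fit with the replicate block 4 Ccnd2 probe sets passed and no other member did, where 5.21% of all probe sets were called lower in that fit. These 4 were 1416122_at, 1434745_at, 1430127_a_at and 1455956_x_at (limma adjusted p = 0.0162, 0.023, 0.014 and 0.0126). Within a replicate number, the difference of the brightest probe set was -1.21, -1.17 and -0.42 on the log2 scale for numbers 1, 2 and 3.

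Markers of the stomach and pylorus surface differed by site, as Ccnd2 did, and the epithelial and fibroblast sums were higher in cecal tumors. The summed intensity of 6 stomach and pylorus surface genes, brightest among them Gkn1, Gkn2 and Tff2, was 525 to 752 in cecal tumors, against 46580 to 67525 in duodenal tumors. Within a site its order was not that of Ccnd2. In duodenal tumors 1, 2 and 3 the sum was 50008, 46580 and 67525, and the brightest Ccnd2 probe set had 1902.3, 2928.4 and 2153.0. In cecal tumors 1, 2 and 3 the sum was 580, 525 and 752, and that probe set had 813.3, 1293.2 and 1603.9. The sum of 7 epithelial genes, led by the keratins Krt8, Krt19 and Krt18, was 61502 to 65176 in cecal tumors and 51880 to 59402 in duodenal tumors. For 6 fibroblast genes, led by Col3a1, Dcn and Col1a2, the sums were 16006 to 20331 and 11462 to 14730 in cecal and duodenal tumors. All 6 stomach genes were called, 1 of the 7 epithelial and 1 of the 6 fibroblast genes, where 10.4% of all tested genes were. Single genes did not all follow the sums. Krt8 and Krt19 had log2 folds of 0.21 and 0.13 but Krt18 had -0.14, and none of these was called. Col3a1 was called (log2 fold 0.73), whereas Dcn overlapped between the sites (log2 fold 0.22). The sums of 9 leukocyte genes, led by Csf1r, Ptprc and Cd68, overlapped in part, at 2383 to 2740 in cecal tumors and 2241 to 2388 in duodenal tumors, with Cd3g, Cd79b and Itgam dim on all arrays. Smooth muscle sums (6 genes, led by Acta2, Tagln and Actg2) were 5366 to 6705 and 4611 to 7967 in cecal and duodenal tumors, endothelial sums (4 genes, led by Pecam1, Kdr and Cdh5) were 403 to 493 and 397 to 525, and the erythroid genes Alas2 and Hba-a1 were dim on all arrays. The part of these cell types in the Ccnd2 difference was not tested.

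Ccnd1 encodes cyclin D1 and had 3 probe sets. The brightest, 1417420_at, had 1651.3, 2143.1 and 2692.8 in cecal tumors 1, 2 and 3, against 2034.3, 2815.7 and 2286.3 in duodenal tumors. The groups overlapped, with a log2 fold of -0.15 ± 0.20 SE and an interval of -0.60 to 0.30 (limma adjusted p = 0.704). The other Ccnd1 probe sets 1448698_at and 1417419_at gave -0.26 ± 0.25 and -0.05 ± 0.28 (limma adjusted p = 0.585 and 0.942). Their intervals ran from -0.83 to 0.30 and from -0.70 to 0.60, so a change of Ccnd1 was bounded only loosely. All 3 turned slightly positive without cecal tumor 1, where Ccnd1 was lowest.

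Ccnd3, the gene of cyclin D3, was nearly level between the sites and between tumors. Its probe set had 611.1, 667.4 and 655.0 in cecal tumors 1, 2 and 3, against 653.0, 698.0 and 594.7 in duodenal tumors. The log2 fold was -0.01 ± 0.13 SE with an interval of -0.29 to 0.28 (limma adjusted p = 0.984), a range of 0.815 to 1.21 times the duodenal level. The highest array was 1.09 times the lowest among cecal tumors and 1.17 times among duodenal tumors.

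Setting the D-type cyclins against each other within an array removes any scaling between arrays. The log2 intensity of Ccnd2 minus that of Ccnd1, each by its brightest probe set, was -1.01, -0.72 and -0.74 in cecal tumors 1, 2 and 3, against -0.10, 0.06 and -0.09 in duodenal tumors. The size of such a value depends on the probes, so only its difference between the sites is read, -0.78 on the log2 scale. The sites did not overlap, and the exact permutation test gave p = 0.1 (two-sided), the smallest that 3 against 3 arrays allow, or 0.15 adjusted over the 3 pairs. Ccnd2 minus Ccnd3 differed by -0.93, also without overlap (exact permutation p = 0.1, adjusted 0.15). Ccnd1 minus Ccnd3 differed by -0.14, with overlap (exact permutation p = 0.7). The ratio of Ccnd2 to Ccnd1 in cecal tumors was thus 0.582 times that in duodenal tumors, with every tumor of one site on the same side of every tumor of the other.

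**Figure D3:**
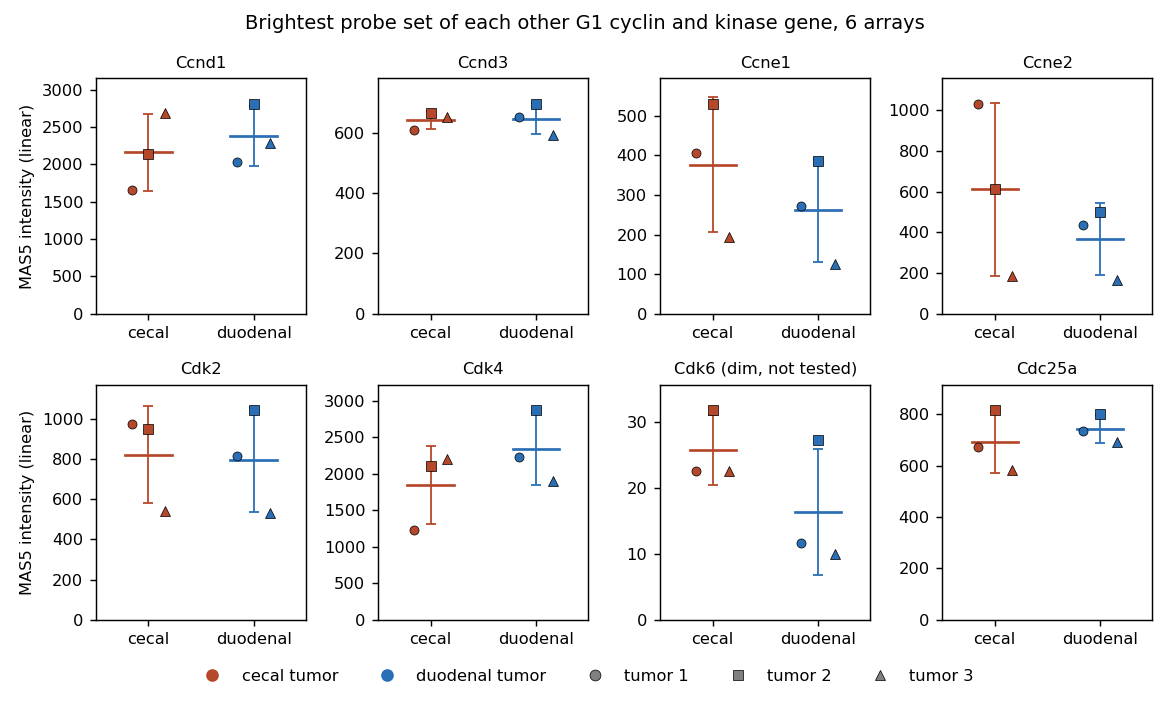
MAS5 intensity (linear, y axis from 0) of the brightest probe set of the other 8 genes on the 6 arrays, cecal tumors left and duodenal tumors right. Points are tumors, with the shape giving the tumor number, lines are means and bars are SDs (n = 3). The sites overlap in every panel, and tumor 3 of both sites is the lowest for Ccne1, Ccne2, Cdk2 and Cdc25a.

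Cdk4 is the kinase partner of the D-type cyclins. Its brightest probe set, 1422441_x_at, had 1225.1, 2111.1 and 2204.8 in cecal tumors 1, 2 and 3, against 2233.8, 2877.2 and 1900.5 in duodenal tumors. Like the s and x probe sets of Ccnd2, it can also bind other transcripts. The groups overlapped and the log2 fold was -0.36 ± 0.25 SE, with an interval of -0.93 to 0.20 (limma adjusted p = 0.428). The probe sets 1422440_at and 1422439_a_at gave -0.28 ± 0.25 and -0.27 ± 0.16 (limma adjusted p = 0.559 and 0.382). Cdk6, the other D-type partner, had 1 probe set at 22.6, 31.8 and 22.6 in cecal tumors, against 11.7, 27.3 and 10.0 in duodenal tumors. All of these lay below the 40th percentile, so Cdk6 was not measured well enough to compare.

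The promoter of Cdk4 is shown because the gene is a known target of Myc, a factor that binds the E-box CACGTG, and because its bases can be set against those of Cdk2 and Cdc25a further on. The 250 bases before its start (chr10:127063285-127063534, plus strand, RefSeq on GRCm38.p6), written 5′ to 3′ with CACGTG in capitals, read as follows.
Cdk4: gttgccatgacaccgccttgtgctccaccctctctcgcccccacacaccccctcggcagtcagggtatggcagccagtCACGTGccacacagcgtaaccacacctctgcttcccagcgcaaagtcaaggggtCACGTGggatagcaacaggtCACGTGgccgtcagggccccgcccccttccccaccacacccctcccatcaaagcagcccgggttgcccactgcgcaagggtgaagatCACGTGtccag
This window holds 4 copies of CACGTG, at 172, 118, 98 and 11 bases before the start. The Cdk6 window, which is not shown, holds 1 copy, at 220 bases before its start. Of 32841 mouse promoter windows of this length, 6.02% held at least 1 copy and 7 held 4 or more. The motif reads the same on both strands, and a match of letters says nothing of binding in these tumors.

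The E-type cyclins varied more between tumors of a site than between the sites. Ccne1, the gene of cyclin E1, had 406.8, 531.0 and 193.4 in cecal tumors 1, 2 and 3, against 272.4, 385.3 and 125.0 in duodenal tumors 1, 2 and 3. The sites overlapped (log2 fold 0.52 ± 0.44 SE, interval -0.49 to 1.54, limma adjusted p = 0.542), yet within each replicate number the cecal tumor was higher, by 0.55, 0.45 and 0.57 on the log2 scale. With the replicate number as a block the standard error was 0.14 and the adjusted p was 0.0624 (limma), short of the threshold. Ccne2, the gene of cyclin E2, had 1033.6, 615.5 and 185.5 in cecal tumors, against 434.2, 498.6 and 167.9 in duodenal tumors. Cecal tumor 1 had 5.57 times the level of cecal tumor 3, the widest such ratio of any tested member, and the site difference was within that spread (log2 fold 0.55 ± 0.60 SE, interval -0.83 to 1.93, limma adjusted p = 0.643). Within each replicate number the cecal tumor was higher here too, by 1.22, 0.30 and 0.13, and with the block the standard error was 0.22, the interval 0.02 to 1.08 and the limma adjusted p 0.18. Neither E-type cyclin had a stable fold: with single arrays left out Ccne2 was at 0.03 when cecal tumor 1 was dropped and at 1.22 when cecal tumor 3 was. Ccne1 was at 0.10 when duodenal tumor 3 was dropped and at 0.92 when cecal tumor 3 was, none of them called.

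Cdk2, the kinase that the E-type cyclins activate, had 970.3, 946.4 and 542.4 in cecal tumors 1, 2 and 3, against 812.8, 1043.3 and 528.9 in duodenal tumors. The sites were nearly level (log2 fold 0.05 ± 0.29 SE, interval -0.62 to 0.72, limma adjusted p = 0.942), and tumor 3 was the lowest at both. Cdc25a, which activates Cdk2, had 673.2, 817.4 and 583.4 in cecal tumors by its brightest probe set, against 736.3, 800.2 and 692.8 in duodenal tumors. Its log2 fold was -0.11 ± 0.15 SE (interval -0.47 to 0.24, limma adjusted p = 0.72), and 1417132_at gave -0.22 ± 0.15 (limma adjusted p = 0.419).

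Seen across the 6 tumors, the members showed 2 patterns, described here after their values were seen. Ccne1, Ccne2, Cdk2 and the brightest probe set of Cdc25a were lowest in tumor 3 at both sites. The second Cdc25a probe set was not: it had 534.9, 516.6 and 590.0 in cecal tumors, highest in tumor 3, against 751.5, 612.9 and 567.6 in duodenal tumors. For Cdk2, the replicate number held 95.4% of the variance of the log2 values over the 6 arrays and site held 0.403%. For Ccne1 the shares were 84.2% and 15.6%, and for Ccne2 83.1% and 9.57%, where the medians over all tested genes were 29.8% for the number and 31.3% for site. The labels name no batch, litter or day behind the numbers, so what tumors of one number share is unknown here. Neither the D-type cyclins nor Cdk4 were lowest in tumor 3 at both sites. By their brightest probe sets, Ccnd1, Ccnd2 and Cdk4 were lowest in tumor 1 among cecal tumors and highest in tumor 2 among duodenal tumors, while 1448229_s_at and the dim 1416123_at of Ccnd2 were lowest in cecal tumor 2. Site held 65.5% of the variance of Ccnd2, against 8.82% for Ccnd1, 0.208% for Ccnd3 and 24.3% for Cdk4. The replicate number held 24.7% for Ccnd2, 62.0% for Ccnd1, 54.5% for Ccnd3 and 39.9% for Cdk4. For the brightest probe set of Cdc25a it held 75.5%. Number shares above the 29.8% median of all tested genes were thus seen in both patterns.

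**Figure D4:**
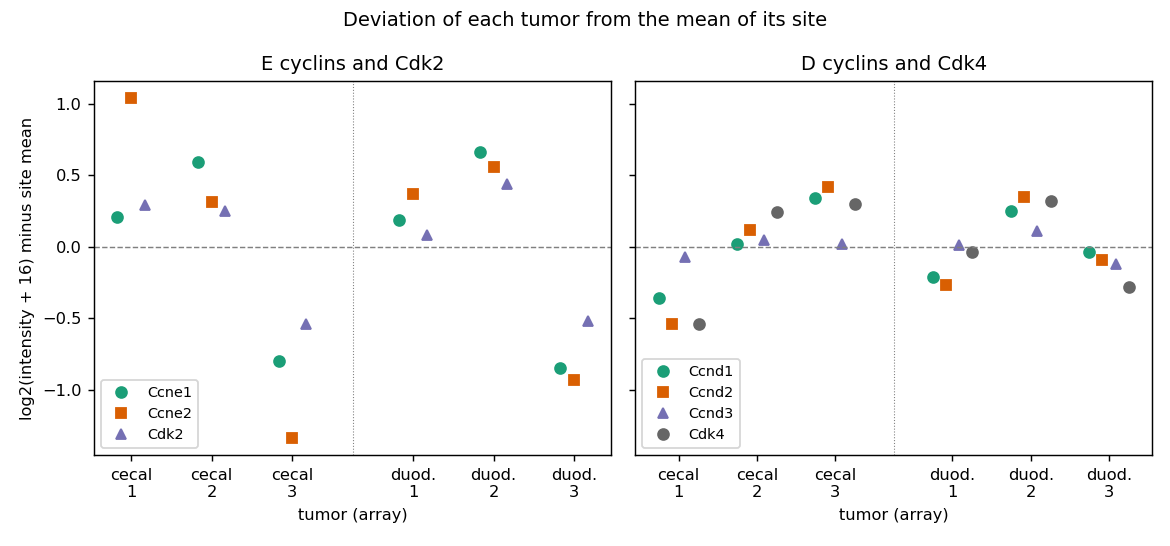
Log2(intensity + 16) of each tumor minus the mean of its site (y axis), for the E-type cyclins and Cdk2 (left panel) and the D-type cyclins and Cdk4 (right panel), cecal tumors left of duodenal tumors in each. Cecal tumor 3 and duodenal tumor 3 lie at -0.52 or lower for all 3 genes of the left panel. In the right panel cecal tumor 1 is the lowest cecal tumor for each gene.

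Tumor 3 of both sites was also the lowest for most of the listed genes that follow G1 in the cycle. Of 17 tested S-phase genes that E2F factors are known to drive, 15 were lowest in tumor 3 at both sites, as were 5 of 5 later cyclin, Cdk1 and Cdc25 genes and 6 of 9 tested Rb family and E2F genes. These counts are by rank, whatever the margin. For Ccna2 the cecal tumors 1, 2 and 3 were almost level, at 1355.4, 1396.8 and 1352.7. For Ccnb2 cecal tumors 2 and 3 were, at 960.8 and 957.2. Among the CDK inhibitors 3 of 6 were lowest in tumor 3 at both sites. Among the genes of CDK activation and turnover 5 of 18 were lowest there, with 2 others highest there. Over all 8129 tested genes 13.8% were lowest in tumor 3 at both sites, and 1187 were highest there. Mki67, a marker of cycling cells, had 2473.3, 2122.4 and 1723.2 in cecal tumors 1, 2 and 3, against 2107.3, 1901.5 and 1330.0 in duodenal tumors. Pcna, the sliding clamp of DNA replication, had 9907.7, 9647.2 and 6033.9 in cecal tumors, against 7294.1, 7873.5 and 5677.4 in duodenal tumors. None of the 9 tested upstream Wnt, Myc and mitogen genes was lowest in tumor 3 at both sites, and 1 was highest there. With 9 genes this cannot be told from the 13.8% of all genes. The fibroblast sum was highest in tumor 3 at each site, 20331 in cecal tumor 3 against 16006 and 18153 in the other cecal tumors, and 14730 in duodenal tumor 3 against 11462 and 11780 in the other duodenal tumors. The stomach and pylorus sum was also highest in tumor 3 at each site, 752 in cecal tumor 3 against 525 and 580 in the other cecal tumors, and 67525 in duodenal tumor 3 against 46580 and 50008 in the other duodenal tumors. In cecal tumors its brightest genes, Gkn1, Gkn2 and Tff2, all lay below the 40th percentile. Gkn1 was higher in cecal tumor 1 (71.8) than in cecal tumor 3 (64.3), so the cecal order rests in part on dim values. The part of the fibroblast or stomach genes in the low E-type cyclin values was not tested.

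The promoters of Cdk2, Cdc25a and Ccne1 are shown because the 3 genes were all low in tumor 3 of both sites by their brightest probe sets. Ccne2 had the same pattern, and its promoter is not shown. Each is the 250 bases before the start, 5′ to 3′, from RefSeq on GRCm38.p6: Cdk2 at chr10:128705052-128705301, minus strand, Cdc25a at chr9:109875329-109875578, plus strand, and Ccne1 at chr7:38107491-38107740, minus strand. Capitals mark matches on either strand to the E2F core, searched as TTCCCGC or TTCGCGC or TTGCCGC or TTGGCGC.
Cdk2: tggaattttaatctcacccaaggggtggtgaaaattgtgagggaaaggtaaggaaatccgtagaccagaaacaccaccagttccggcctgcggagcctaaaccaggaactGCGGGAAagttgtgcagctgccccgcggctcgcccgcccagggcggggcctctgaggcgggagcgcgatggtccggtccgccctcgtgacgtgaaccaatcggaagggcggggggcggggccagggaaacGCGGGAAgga
Cdc25a: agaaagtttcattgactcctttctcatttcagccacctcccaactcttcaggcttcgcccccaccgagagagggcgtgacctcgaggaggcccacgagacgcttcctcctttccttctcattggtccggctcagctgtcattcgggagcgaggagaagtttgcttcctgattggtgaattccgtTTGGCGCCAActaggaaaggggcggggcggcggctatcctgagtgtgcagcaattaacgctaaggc
Ccne1: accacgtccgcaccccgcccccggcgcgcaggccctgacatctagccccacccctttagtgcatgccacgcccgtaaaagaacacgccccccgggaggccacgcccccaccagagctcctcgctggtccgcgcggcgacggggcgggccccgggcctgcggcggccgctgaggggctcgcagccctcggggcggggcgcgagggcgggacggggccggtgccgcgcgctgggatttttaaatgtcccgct
Cdk2 had 2 matches, at 140 and 10 bases before its start. Cdc25a had 2 that overlap, at 66 and 63 bases, 1 on each strand. The Ccne1 window and the Cdk4 window above held none of these letters, and neither Cdk2 nor Cdc25a held CACGTG. Of all 32841 windows 7.89% held an E2F core match. Here too a match of letters says nothing of binding in these tumors, and its part in the tumor 3 values was not tested.

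The rest of the pathway, 64 tested genes in 6 lists, gave no called gene between the sites by limma, where 10.4% of all tested genes were called. At an unadjusted limma p under 0.05 there were 5 of the 64, Cdkn1b, Ccna2, Gsk3b and Tcf7l2 with positive folds and Wee1 with a negative one, where 24.9% of all tested genes passed, a larger share than in these lists. With the replicate block 3 were called, Cdkn1a and Rrm2 higher and Wee1 lower, where 12.7% of all genes were. Of 6 tested CDK inhibitors, 5 had a positive fold and the median log2 fold was 0.42. Of all 8129 tested genes 3537 had a positive fold, and the median was -0.05. Cdkn1a, which encodes the Cdk2 inhibitor p21, had 4254.6, 5094.0 and 2238.6 in cecal tumors 1, 2 and 3, against 2353.8, 3163.4 and 1719.7 in duodenal tumors (log2 fold 0.64 ± 0.32 SE, limma adjusted p = 0.282, or 0.0179 with the replicate block). Cdkn1b, which encodes p27, had 1036.2, 599.8 and 503.5 in cecal tumors, against 343.5, 426.9 and 450.3 in duodenal tumors, with no overlap (log2 fold 0.73 ± 0.26 SE, limma adjusted p = 0.13), where 31.3% of tested genes did not overlap. Cdkn2d, an inhibitor of Cdk4 and Cdk6, had a log2 fold of 0.55 ± 0.26 (limma adjusted p = 0.251). Cdkn1a was also lowest in tumor 3 at both sites, as were Cdkn2c and Cdkn2d.

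Of 9 tested Rb family and E2F genes the median log2 fold was 0.09, and none passed. Rbl1, a pocket protein related to Rb1, was at 0.35 ± 0.28 SE (limma adjusted p = 0.516), and E2f1, an activating E2F factor, at 0.23 ± 0.26 (limma adjusted p = 0.656). Of the 5 tested later cyclin, kinase and phosphatase genes, Ccna2, the S-phase cyclin A2, had 1355.4, 1396.8 and 1352.7 in cecal tumors, against 1209.8, 1147.9 and 857.9 in duodenal tumors, without overlap (log2 fold 0.36 ± 0.15 SE, limma adjusted p = 0.194), where 31.3% of tested genes did not overlap. Its other probe set did overlap, with 997.0 to 1309.8 in cecal tumors and 671.9 to 1116.8 in duodenal tumors. Cdk1, the mitotic kinase, had a log2 fold of 0.22 ± 0.25 and Cdc25c one of 0.30 ± 0.34 (limma adjusted p = 0.657 and 0.651). The 17 S-phase genes had a median of 0.04 and ran from -0.23 to 0.55, the highest being Rrm2, a subunit of ribonucleotide reductase, at 0.55 ± 0.30 SE (limma adjusted p = 0.319, or 0.048 with the replicate block). Pcna was at 0.27 ± 0.21 and Mki67 at 0.25 ± 0.20 (limma adjusted p = 0.485 and 0.513).

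Among 18 tested genes of CDK activation and of cyclin and Cdc25a turnover, 13 had a negative fold and the median was -0.10. Of all tested genes 56.5% were negative, with a median of -0.05. Wee1, the kinase that opposes Cdc25 phosphatases, had 557.4, 315.1 and 268.8 in cecal tumors 1, 2 and 3, against 745.9, 588.8 and 523.3 in duodenal tumors (log2 fold -0.73 ± 0.26 SE, limma adjusted p = 0.137, or 0.0272 with the replicate block). Gsk3b, a kinase that marks cyclin D1 for degradation, had 277.3, 232.3 and 234.6 in cecal tumors, against 142.6, 199.7 and 185.3 in duodenal tumors, without overlap (log2 fold 0.47 ± 0.17 SE, limma adjusted p = 0.147), where 31.3% of tested genes did not overlap. Cks2, a Cdk-binding subunit, had a log2 fold of 0.45 ± 0.23 (limma adjusted p = 0.295). Of 9 tested upstream genes, whose median was 0.04, Tcf7l2, the main Wnt effector of the gut epithelium, came nearest to a call: 626.0, 608.7 and 448.1 in cecal tumors, against 382.8, 307.3 and 368.4 in duodenal tumors, without overlap, as in 31.3% of tested genes (log2 fold 0.64 ± 0.17 SE, limma adjusted p = 0.0562). Axin2, a feedback target of Wnt signaling, had a log2 fold of -0.69 ± 0.45 and Fosl1, an AP-1 factor, one of -0.35 ± 0.25 (limma adjusted p = 0.411 and 0.459). Other tested probe sets existed for 9 of these 18 named genes, 11 in all; each had the same sign as the one given and none was called. One of them, for Tcf7l2, passed with the replicate block (limma adjusted p = 0.0347).

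Among 8128 other tested genes, those whose log2 values followed Ccnd2 most closely over the 6 arrays were Dclre1a (Pearson's r = 0.998), Cdc26 (0.9952) and Tma16 (0.9947). Each was lowest in cecal tumor 1 and highest in duodenal tumor 2, as the brightest Ccnd2 probe set was, and none was called between the sites (limma adjusted p = 0.13, 0.378 and 0.242). For Cdk4 they were Dcun1d5 (0.9937), Tmem132a (0.9912) and Tcf3 (0.9902), and for Ccne1 Slc35a5 (0.9905), Frg1 (0.9885) and Nsmce2 (0.9871). With 6 arrays and so many genes, values this high describe the arrays and carry no test.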

How the data were processed

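Total RNA of 6 tumors, 3 cecal and 3 duodenal, was measured on 1 Affymetrix array each. The deposited values are linear intensities of probe sets. The authors used MAS5, which the submitters' processing notes name. The sources used here give neither its version nor its scaling target nor its detection calls. The mean intensity between the 2nd and 98th percentiles was 499.1 to 499.9 on every array, so scaling to a common level had been done, and no background correction or normalization was added. Sample titles gave the site and the replicate number.

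Probe sets were named by the platform annotation: of 22690, 20380 named 1 gene, 691 several, 1555 none and 64 were controls, which were left out. All 9 members matched a RefSeq table of GRCm38.p6. The fit was limma 3.58.1 in R 4.3.3 (lmFit, then two-sided eBayes tests with a variance trend on intensity), over all tested probe sets, with an offset of 16 before log2. A gene was represented by its brightest tested probe set. Named pathway genes were every called gene of a list or else the 3 with the smallest p; of each marker list the 3 brightest genes were named, and of the 3 members with the smallest p the 3 genes nearest in pattern. Members and lists were chosen with earlier results of these data known. Some listed genes, among them E2f2, E2f7, Tfdp2, Ccnb1, Usp28, Tcf7 and Hbb-b1, were not analysed here, and Cdkn2a, E2f3, Ccna1 and Lef1 were too dim to test.

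Same-numbered tumors of the 2 sites had deviations from their site means that correlated at 0.274, 0.299 and 0.203, against -0.2 to -0.026 for other pairs, which meets the bar of 0.1 set for pairing. Deviations from a site mean cancel out over its tumors, so positive values for same numbers make the others negative on average. The negative values are therefore not separate evidence. The reported fit is unpaired, and a fit blocked on the number is given as an alternative. The data alone give this pairing, since no label ties a number to a litter, day or batch. The limma p-values with the block make no allowance for that choice. Alternatives covered the offset, the filter, the normalization, the variance model, array weights, the replicate block, the mean of a gene's probe sets, and each array left out. In a simulation built on the 13866 tested probe sets, the fit called 64 of 100 probe sets given a 2-fold change and 92 of 100 given a 4-fold change. The wrong sign was called for 0, and 5 unchanged probe sets were called. Errors were drawn independently and no other probe sets were changed, unlike in the real arrays, so these shares need not carry over. Precision is limited by there being 3 arrays a site. Promoter windows are RefSeq's, searched on both strands. Tables and figures used Python 3.11.15 with pandas 2.3.3, scipy 1.17.1 (permutation tests) and matplotlib 3.10.9.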

Additional observations from a re-analysis of the deposited data

How the results depend on the processing

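The count of called member probe sets, 3 as reported, was 2 or 3 with either offset, the stricter filter, median centring and array weights, and 4 with the replicate block. It was 1 without the filter on dim probe sets, without the intensity trend and with quantile normalization, each time 1430127_a_at of Ccnd2. It ranged from 0 to 3 with single arrays left out, and every called member probe set under every alternative was one of Ccnd2, lower in cecal tumors. The cause of these changes was not tested, apart from the fewer arrays of the last. The count over all probe sets, 1290, was 1939 with array weights and 658 to 1194 with single arrays left out. The replicate block gave 1571 over all probe sets. It added calls for 1416122_at and 1434745_at of Ccnd2, Cdkn1a, Rrm2 and Wee1, took away that of 1448229_s_at (limma adjusted p = 0.0671), and changed no other call of a named gene's brightest probe set. Tcf7l2 was called with array weights, with median centring and without cecal tumor 3 (limma adjusted p = 0.0302, 0.0474 and 0.028), and Wee1 with array weights and without cecal tumor 1 (0.0247 and 0.03). The log2 fold of Ccnd2's brightest probe set lay between -1.15 and -0.66 under all 15 alternatives. The differences between D-type cyclins within an array kept their sign under both offsets, with the replicate block and with each array left out: Ccnd2 minus Ccnd1 lay between -0.83 and -0.69, Ccnd2 minus Ccnd3 between -1.13 and -0.69, and Ccnd1 minus Ccnd3 between -0.3 and -0.0029. The filter at the 60th percentile gave no value for the dimmest probe sets.

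Signs turned for some members and for Cdk1 and Cdc25c, none of them called. Ccnd3 was at 0.013 with array weights, 0.031 with median centring and 0.021 with quantile normalization, and the dimmest Ccnd1 probe set was at 0.13 with array weights. With single arrays left out, Ccnd3 ranged from -0.066 to 0.046, the 3 Ccnd1 probe sets from -0.32 to 0.027, from -0.49 to 0.0022 and from -0.28 to 0.21, Cdk2 from -0.21 to 0.32, Cdc25a from -0.24 to 9.6e-05, Cdk1 from -0.03 to 0.42 and Cdc25c from -0.085 to 0.55. The 3 Cdk4 probe sets stayed below 0 but ranged from -0.51 to -0.094, from -0.48 to -0.03 and from -0.35 to -0.14, and Axin2 ranged from -1.02 to -0.18, none of them called.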
